A study of Mus musculus with 2 samples.

Results

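Interferon-induced genes of the Ifitm group and 4 related genes were followed through the cell classes of 2 single-cell libraries of sorted mouse lung epithelium. The 7 genes, Ifitm1, Ifitm2, Ifitm3, Ifi27l2a, Bst2, Irf1 and Isg15, were taken by symbol, and all 7 were found among the 28692 genes of both files. The question put to them is how their levels in lung epithelium differ between a host that carries a tumor at a distant site and one that does not. Ifitm3 and Ifi27l2a stood 2.78-fold and 2.75-fold higher in alveolar type 2 (AT2) cells of the tumor-bearing library, while Bst2 and Isg15 stood at 1.02 and 1.08 times their control levels. In AT2 barcodes without endothelial or neutrophil transcripts the ratio of Ifitm3 was 1.93-fold and that of Ifi27l2a 2.82-fold. Endothelial-like barcodes held few Ifi27l2a transcripts (12 and 0), so leaving out endothelial RNA could hardly lower that gene. In empty droplets Ifi27l2a was also 3.0-fold higher. Ifitm3 turned direction, to a log2 ratio of -0.55, when free RNA was subtracted by 12 endothelial markers.

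Interferons are secreted signals of antiviral defence. They act through receptor-bound kinases and transcription factors that bind the interferon-stimulated response element (ISRE), mainly after type I and type III interferons, or gamma-activated sites (GAS), after interferon gamma. In the lung, AT2 cells make surfactant and renew the alveolus, and airway and alveolar epithelium meets respiratory viruses first. Ifitm1, Ifitm2 and Ifitm3 encode small membrane proteins that hinder the fusion of enveloped viruses with cell membranes, and Bst2 (tetherin) holds budding virus on the cell surface. Isg15 encodes a ubiquitin-like modifier, Irf1 a transcription factor of the interferon response, and Ifi27l2a a small membrane protein of the Ifi27 family.

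Both groups were wild-type C57BL/6 mice. The tumor-bearing group was sampled at day 14 after 1000000 luciferase-labelled LLC cells (Lewis lung carcinoma, a transplantable mouse lung cancer line) were placed under the skin of the back, and the control group was not treated. CD45-negative, SftpC-positive cells were sorted from digested lungs. Each group had 1 library, and the number of mice behind a library is not given in the sources used here. No value below has a replicate check, so no test was made, and a difference between libraries cannot be told apart from one between mice, sorts or digestions. Intervals are exact 95% intervals that cover counting error only.

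Transcripts were counted as UMIs (unique molecular identifiers), of which the tumor-bearing library held 84448360 and the control 91498124. AT2 were barcodes with at least 2000 UMIs of which at least 15% came from Sftpc, the surfactant gene that defines the cell, and numbered 6729 and 10008 with medians of 8976 and 6939 UMIs. All 12 AT2 markers were at 20 CPM (UMI counts scaled to 1000000 per class and library) or more in both, as were all markers of the classes below but 1 of 10 basal markers in the tumor-bearing library. Clusters outside that rule gave 173 and 316 AT1-like barcodes (the flat cells of gas exchange), 215 and 282 ciliated-like, 247 and 67 club-like (secretory airway cells), 20 and 42 basal-like (airway progenitors) and 477 and 53 endothelial-like barcodes. None of these classes is defined by SftpC, the gene of the sort. Medians of club-like barcodes were far apart, 23270 against 12261 UMIs. Barcodes with 1 to 100 UMIs, taken as empty droplets with free RNA, totalled 5359717 UMIs with a tumor and 2321211 without. At 2000 UMIs or more, 128 barcode sequences occurred in both libraries, 1.56% and 1.16% of them.

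The Ifitm genes lie together on chromosome 7 (mm10, GENCODE M21): Ifitm2 (ENSMUSG00000060591) at 140954837 to 140955987 on the minus strand, Ifitm1 (ENSMUSG00000025491) at 140967221 to 140969825 on the plus strand and Ifitm3 (ENSMUSG00000025492) at 141009586 to 141010770 on the minus strand, a span of 55934 bases. Isg15 (ENSMUSG00000035692) lies on chromosome 4 at 156199424 to 156200818, Bst2 (ENSMUSG00000046718) on chromosome 8 at 71534255 to 71537456, Irf1 (ENSMUSG00000018899) on chromosome 11 at 53770014 to 53778374 and Ifi27l2a (ENSMUSG00000079017) on chromosome 12 at 103442167 to 103443680. All 7 are annotated as protein coding. Of the 50-base words in Ifitm2 transcripts, 48.5% also occur in transcripts of other genes, among them Ifitm3 and pseudogenes. For Ifitm3 that share was 10%, for Ifitm1 5.02%, for Isg15 3.96%, for Ifi27l2a 0.483%, and for Bst2 and Irf1 it was 0%. How reads that match several genes were counted is not given in the sources used here, so the level of Ifitm2 in particular is uncertain.

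Promoter windows from RefSeq (GRCm38.p6, 250 bases before to 50 after each start) were matched by symbol for 6 of the 7 genes, all but Ifi27l2a. They are shown because the gene with a high ratio in AT2, Ifitm3, and genes with ratios near 1, Bst2 and Isg15, carry the same letters. Capitals mark matches to the ISRE core, taken as GAAA, any 2 bases and GAAA again, searched on both strands, where matches may overlap each other. It occurs in 3.43% of 32817 promoter windows of that length and in windows of 4 of the 6 genes. Each line gives 30 bases, 5′ to 3′ along the gene's own strand.
Ifitm2, chr7:140955988-140956017, minus strand: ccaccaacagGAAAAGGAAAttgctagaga
Ifitm3, chr7:141010714-141010743, minus strand: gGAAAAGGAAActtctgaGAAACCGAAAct
Bst2, chr8:71537580-71537609, minus strand: attccagGAAAATGAAACTGAAAggctgca
Isg15, chr4:156200871-156200900, minus strand: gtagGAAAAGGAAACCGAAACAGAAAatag
Ifitm2 holds 1 match, Ifitm3 2, Bst2 2 and Isg15 3. In Isg15 they run from 78 to 57 bases upstream of the start, in Bst2 from 130 to 115 and in Ifitm2 from 46 to 37, and in Ifitm3 they lie just inside the transcript, at bases 3 to 29. The windows of Ifitm1 and Irf1 hold no match to these letters. That of Ifitm1 (chr7:140967826-140968125, plus strand) lies inside the GENCODE gene. Bases around the GENCODE start of Ifitm1 at 140967221 were therefore not searched. The GAS letters TTCNNNGAA, shown in capitals for Irf1, occur in 8.29% of windows and in those of Irf1, Bst2 and Ifitm3.
Irf1, chr11:53769914-53769943, plus strand: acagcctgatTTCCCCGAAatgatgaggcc
In Bst2 the GAS match overlaps the ISRE matches by position (136 to 128 bases upstream), as it does in Ifitm3 (bases 14 to 22). A match describes letters and is not evidence that a factor was bound.

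In AT2, Ifitm3 was at 81.9 CPM (79.6 to 84.1) with a tumor and 29.4 CPM (28.2 to 30.7) without, a 2.78-fold ratio (2.64 to 2.93). Ifi27l2a was at 28.8 CPM (27.5 to 30.2) against 10.5 CPM (9.74 to 11.2), a 2.75-fold ratio (2.53 to 3.0). The intervals of the 2 libraries, which cover counting error only, were separate for both genes. With free RNA subtracted by 12 endothelial markers the log2 ratio of Ifitm3 was -0.55 and that of Ifi27l2a 1.33. Genes were described by a rule of size: a ratio of at least 1.5-fold, at least 10 CPM in either library and intervals that do not overlap. Among the 7 genes 5 reached 10 CPM, and 2 of these were past the rule, both higher, where 2.46% of all 6210 genes of that level were past it in either direction, 1.55% higher and 0.918% lower.

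Ifitm2, Irf1, Bst2 and Isg15 differed less in AT2, and Ifitm1 was low in both libraries. Ifitm2 was at 175 CPM (172 to 178) against 139 CPM (136 to 142), a 1.26-fold ratio (1.23 to 1.30). Irf1 was at 34.7 against 28.6 CPM, a 1.21-fold ratio (1.14 to 1.29). For both, the intervals of the libraries were separate but the ratio stayed under 1.5-fold. Bst2, at 28.7 against 28.1 CPM (fold 0.957 to 1.09), and Isg15, at 7.09 against 6.54 CPM (fold 0.95 to 1.24), had intervals that include no difference and that lie below 1.5-fold. Ifitm1 was at 7.56 against 2.12 CPM, a 3.56-fold ratio (2.96 to 4.30), but stayed under 10 CPM in both libraries, so the rule does not apply to it.

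**Figure D1:**
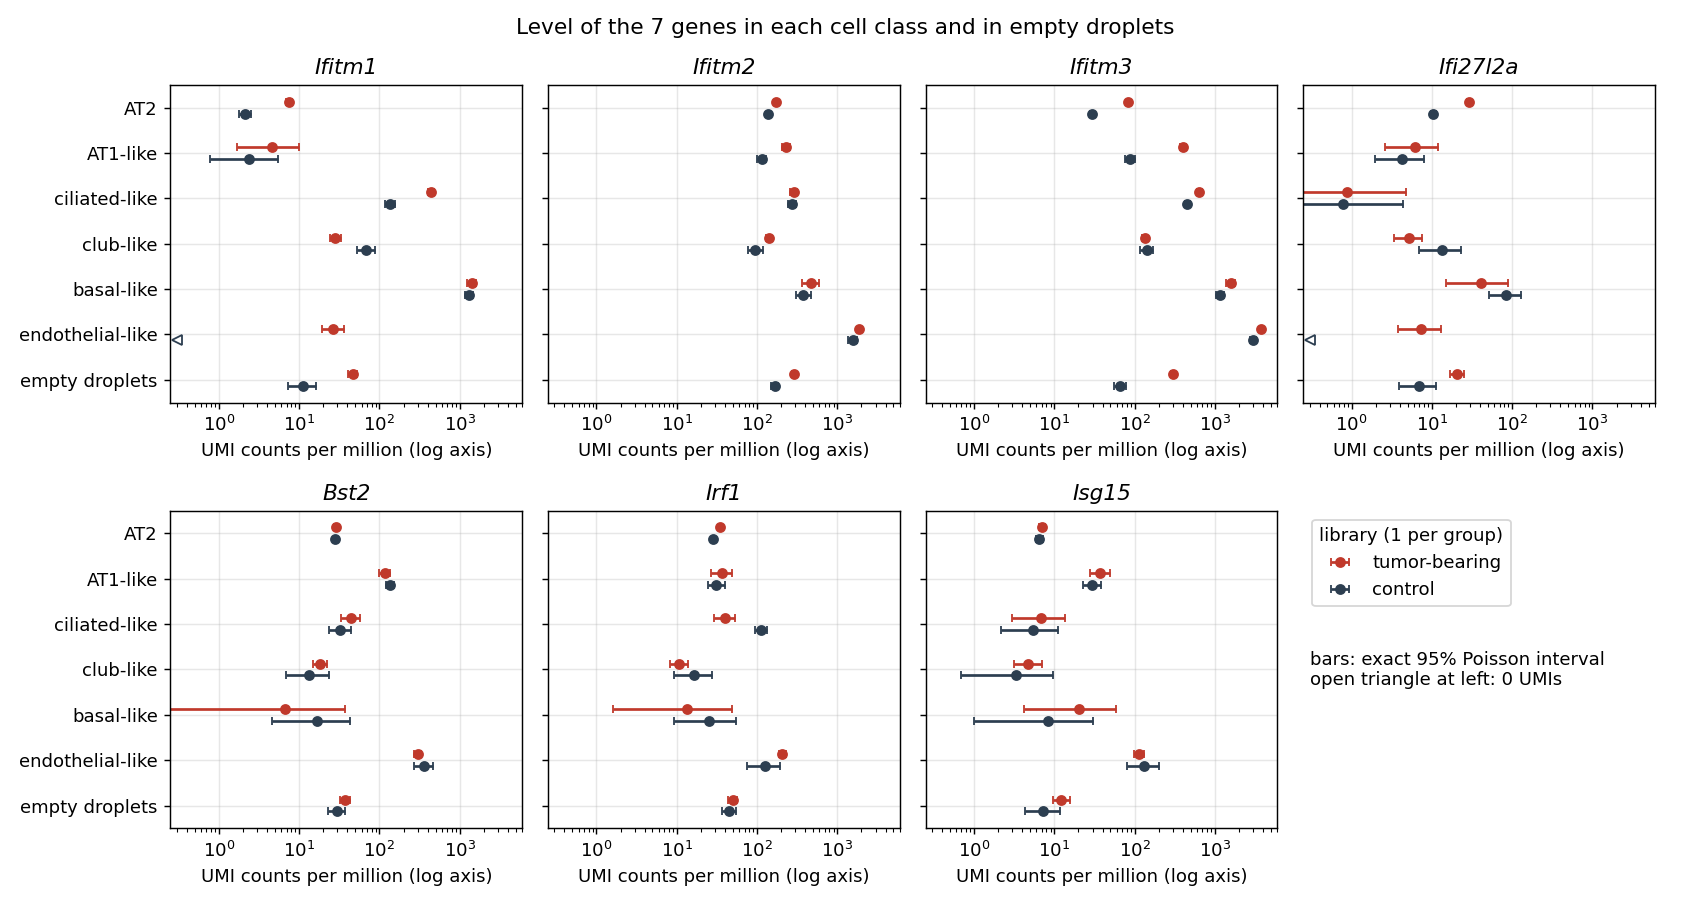
Level of each of the 7 genes (log axis, CPM) in 6 cell classes and empty droplets, in the tumor-bearing (red) and control (dark) library, with exact 95% Poisson intervals. Ifitm2 and Ifitm3 peak in endothelial-like barcodes and Ifitm1 in basal-like barcodes of both libraries, and Ifitm3 in AT2 lies at 81.9 and 29.4 CPM.

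Shares of barcodes with a UMI were compared after every barcode was thinned to 2000 UMIs, since AT2 depth differed. Ifitm3 was then seen in 11.8% (11.1 to 12.6) of tumor-bearing and 5.12% (4.69 to 5.57) of control AT2 (35.9% and 15.3% unthinned). Ifi27l2a was seen in 4.01% (3.56 to 4.51) and 1.68% (1.44 to 1.95), or 11.8% and 4.51% unthinned. Ciliated-like barcodes, which held 1 Ifi27l2a UMI in each library, showed 0.465% and 0.355% of barcodes, at medians of 5107 and 4336 UMIs. The Ifi27l2a share in AT2 was above that of the ciliated-like class with a tumor, while in the control library the intervals of these classes overlapped (1.44 to 1.95 and 0.00898 to 1.96). Bst2 was seen in 5.28% and 5.34% of thinned AT2 and Isg15 in 1.40% and 1.13%, with overlapping intervals. Ifitm1 was seen in 0.832% (0.629 to 1.08) and 0.360% (0.252 to 0.498) of thinned AT2. The shares of AT1-like barcodes, 1.16% and 0.316%, came from only 2 and 1 barcodes. Unthinned, the 476 Ifitm1 UMIs of tumor-bearing AT2 lay in 248 barcodes, with up to 46 in a barcode. Whether they are background was not tested.

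Ifi27l2a was unevenly spread among AT2. In the tumor-bearing library the top 5% of barcodes (336) held 74.7% of its UMIs and 1 barcode held 66, and in the control library all 759 UMIs lay in 451 barcodes. The same top share was 45.9% and 51.9% for Ifitm3 and 18.6% and 19.8% for Ifitm2. At 2000 UMIs, at least 1 of the 7 genes was seen in 46.2% (45.1 to 47.4) of tumor-bearing and 36.6% (35.6 to 37.5) of control AT2, and 3 or more in 1.40% and 0.629%. Ifitm2 and Ifitm3 were seen together in 282 tumor-bearing barcodes where 226 would share them if the genes were independent, and in 141 control barcodes against 121. Ifitm3 and Bst2 shared 70 against 42.0 and 34 against 27.3. Ifi27l2a and Bst2 shared 26 tumor-bearing barcodes against 14.2 and 17 control barcodes against 9.0. Bst2 and Isg15 shared 17 barcodes against 4.96 in the tumor-bearing library but 4 against 6.03 in the control library. These pairs are a selection, and some others were below the expected number in the tumor-bearing library. Ifitm2 and Irf1 shared 114 barcodes against 122 there and 139 against 131 in the control library. Ifitm2 and Bst2 shared 98 against 101 and 146 against 126. Barcodes of a library share its free RNA, and the counts for Ifi27l2a with Bst2 and for Bst2 with Isg15 are small.

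The rest of the interferon pathway was read from lists written for these 7 genes. Of 60 other interferon-induced genes 59 were in the files and 13 reached 10 CPM in AT2. None was past the rule in either direction, 6 had ratios above 1 and 7 below, and their median log2 ratio was -0.00063 beside -0.046 over all 6210 genes. The highest ratio among the 13 was that of Lgals3bp, which encodes a secreted galectin-binding glycoprotein, at 1.30-fold (1.17 to 1.45), and the lowest that of Psmb8, a subunit of the immunoproteasome, at 0.840 (0.807 to 0.874). Ifi27, a relative of Ifi27l2a, was at 205 against 163 CPM, a 1.26-fold ratio (1.23 to 1.30). Classical antiviral genes such as Ifit1 (0.890 and 0.676 CPM), Ifit3 (2.42 and 2.28 CPM), Rsad2 (0.0953 and 0.138 CPM) and Usp18 (2.64 and 1.75 CPM) were too low in AT2 for the rule. Several such low genes of the list had fold intervals above 1. They were Usp18, Rtp4, Oas1a, Ifi203, Oasl2, Xaf1, Ifi44, Trim30a, Slfn2, Sp100, Gbp3 and Cxcl10. Examples are Rtp4 (1.61-fold, 1.38 to 1.87), Oas1a (2.17-fold, 1.42 to 3.37) and Ifi203 (4.95-fold, 2.89 to 8.95). Fewer lay below 1, those of Igtp, Irgm1 and Tap1. The share over all genes of such low level is not given. Genes named with values are examples chosen after their values were seen.

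Upstream parts of the pathway that reached 10 CPM also had no gene past the rule in AT2. Of 11 interferon regulatory factors and STATs 4 reached 10 CPM, with 0 past the rule. Irf2, a relative of Irf1 that opposes it at shared sites, was at 48.2 against 39.7 CPM (1.21-fold, 1.15 to 1.28). Of 9 receptor chains and kinases 6 reached 10 CPM and again 0 were past the rule. The receptor chains Ifnar2 (29.7 and 27.9 CPM) and Ifngr1 (27.6 and 28.6 CPM) had fold intervals that include 1, and the kinase Jak2 stood at 0.722 times its control level (0.655 to 0.796), at 10.7 against 14.8 CPM. The 9 interferon genes of the ligand list had 0 UMIs in AT2 of either library, which at 3 counts allows up to 0.0477 and 0.0414 CPM for each.

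**Figure D2:**
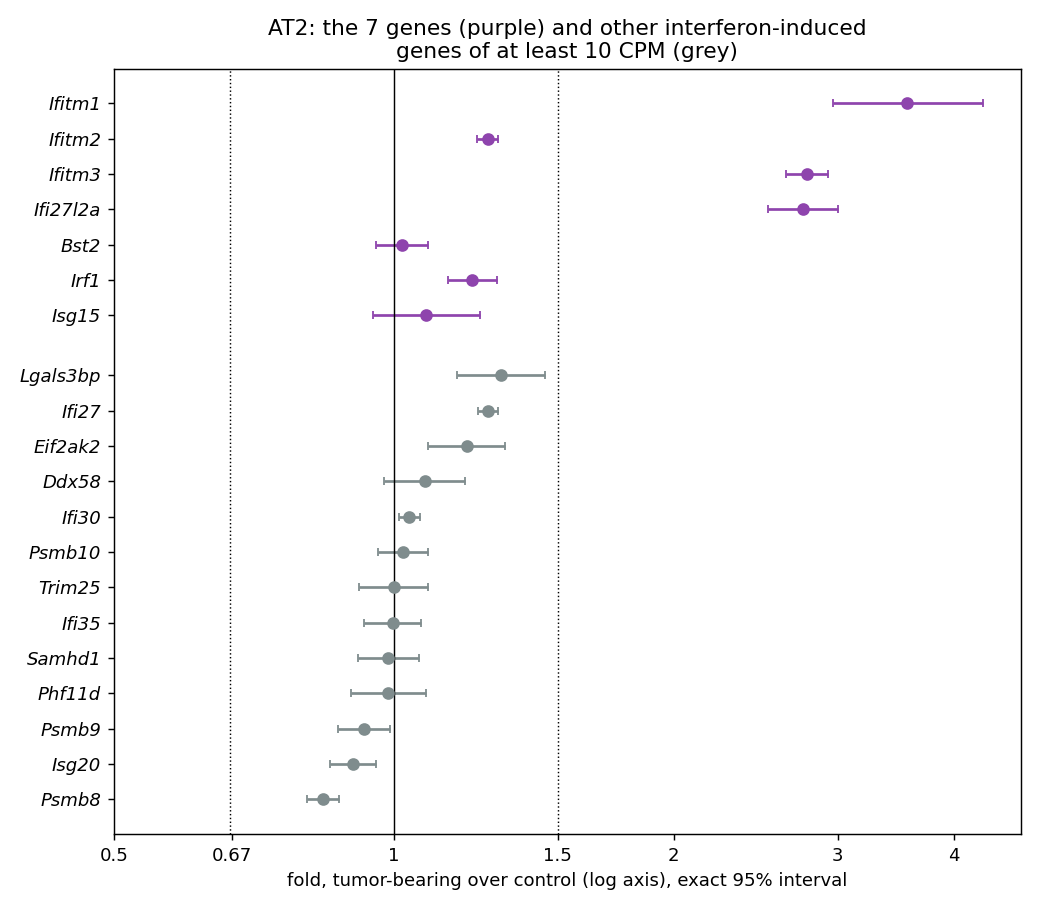
Fold in AT2, tumor-bearing over control (log axis), with exact 95% intervals, for the 7 genes (purple) and the 13 other interferon-induced genes of at least 10 CPM (grey). Dotted lines mark 1.5-fold either way: Ifitm3 at 2.78 and Ifi27l2a at 2.75 lie beyond it, as does Ifitm1, which is under 10 CPM, and the 13 grey genes lie between 0.840 and 1.30.

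Clustered AT2 barcodes fell mostly into 11 clusters with at least 50 barcodes in each library. Likely doublets kept by the AT2 rule (564 with a tumor and 1032 without) were not clustered. They are in none of the 11 but count in the values over all AT2. Ifitm3 had a ratio above 1 in 11 of 11 and was past the rule in 9, all but the clusters led by Lyz1, Bex2 and Lrg1 and by Acta2. Its log2 ratio ranged from 0.37 to 1.42 with a median of 0.99, so in each of the 11 it was below the 1.44 of all AT2 together. Of all genes of at least 10 CPM, the share past the rule in the higher direction was 1.36% in the cluster led by Lyz1, Bex2 and Elovl1, 1.37% in that led by Itih4, 0.973% in that led by Lyz1, Bex2 and Lrg1, 1.36% in that led by Acta2, 0.824% in that led by Nrn1 and Gkn3, and 1.62% in that led by Areg and Slpi. It was 1.06% in the cluster led by Mhrt and mitochondrial genes, 1.32% in that led by Cxcl1, 1.3% in that led by Egr1, 2.05% in that led by Ankrd1 and 1.29% in that led by Pf4. The highest levels of Ifitm3, 281 and 205 CPM, were in the cluster led by Acta2, Tagln and Ccl21a, which carries muscle and stromal transcripts beside AT2 markers and where the ratio was 1.37 (1.20 to 1.57). In the remaining clusters its level lay at 38.2 CPM or more in the tumor-bearing and 18.1 CPM or more in the control library.

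Ifi27l2a had a ratio above 1 in 10 of 11 clusters and was past the rule in 7. Its largest ratio, 4.46-fold (3.07 to 6.71), was in the cluster led by Cxcl1, Areg and Ptgs2, at 33.2 against 7.45 CPM. The highest tumor-bearing level among the 11, 48.4 CPM, was in the cluster led by Areg, Slpi and Ctsh with MHC class II genes, where the control level was 14.8 CPM. The exception was the cluster led by Lyz1, Bex2 and Lrg1, with 653 and 97 barcodes, at 25.7 against 37.8 CPM (fold 0.450 to 1.06). Without the cluster led by Cxcl1 the log2 ratio over AT2 was 1.32 for Ifi27l2a. The other 5 genes were past the rule in 0 clusters. Irf1 was highest in the Cxcl1 cluster of both libraries, at 69.0 and 58.4 CPM, against 12.7 and 19.0 CPM in the cluster led by Itih4, a span between clusters that was larger than the difference between libraries in any of them. Over AT2 without that cluster, which held 1022 tumor-bearing and 525 control barcodes, the log2 ratio of Irf1 was 0.07 instead of 0.27.

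**Figure D3:**
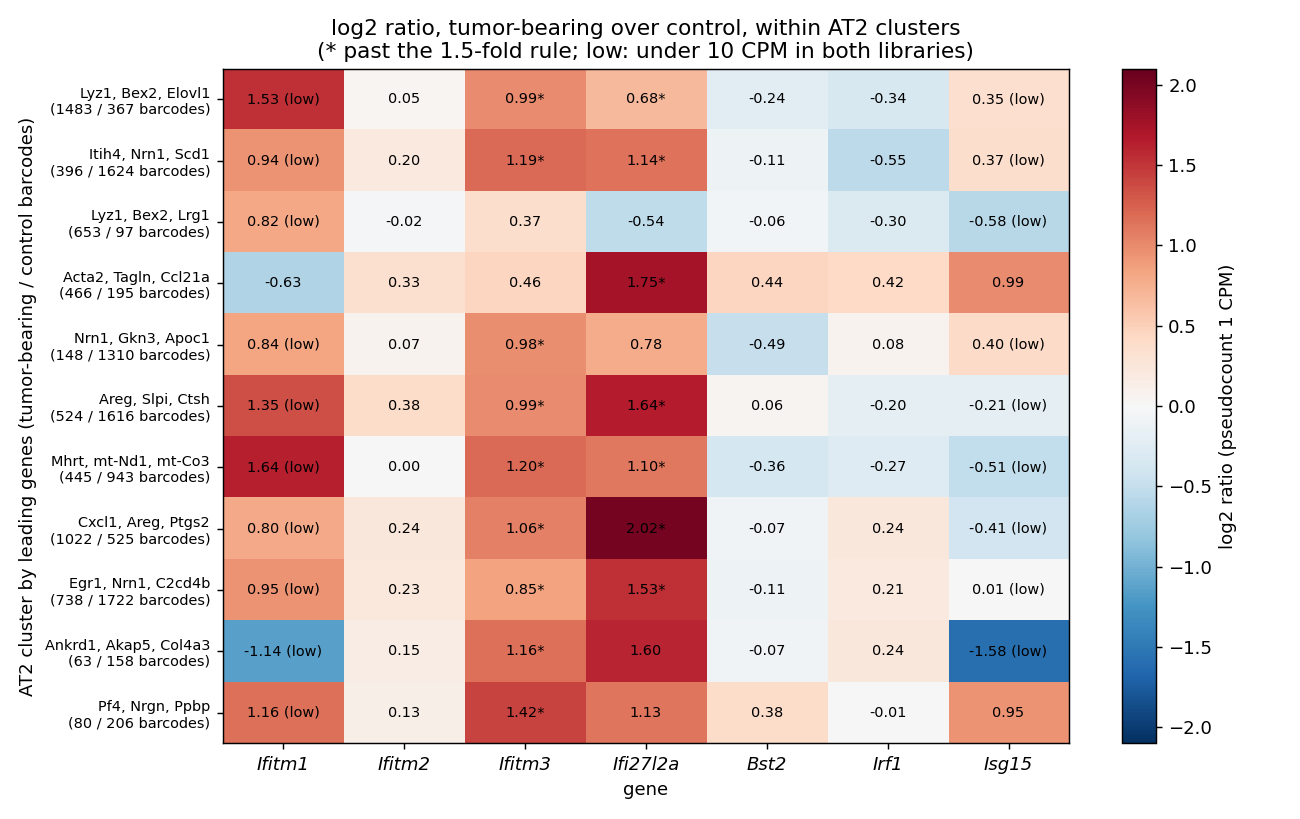
Log2 ratio, tumor-bearing over control, of each gene (columns) in each of 11 AT2 clusters named by leading genes (rows, with barcode numbers). Stars mark ratios past the 1.5-fold rule, in 9 clusters for Ifitm3 and 7 for Ifi27l2a, and values marked low are under 10 CPM in both libraries.

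Endothelial and neutrophil transcripts in AT2 differed between the libraries in the same direction as Ifitm3. All 15 endothelial markers summed to 465 CPM with a tumor and 291 CPM without. In control AT2, Esam, Epas1 and Egfl7 stood at 100%, 99.6% and 59.6% of their empty droplet level and were left out after these values were seen, while Pecam1 and Cdh5, at 52.8% and 58.2%, were kept. The remaining 12 summed to 179 CPM in tumor-bearing and 27.8 CPM in control AT2, with 0 of the 15 at 0. In empty droplets the 12 summed to 735 and 121 CPM, and in endothelial-like barcodes to 19242 and 18675 CPM. The 10 smooth muscle or pericyte markers summed to 12.3 against 4.39 CPM in AT2 with 0 of them at 0, and the 12 fibroblast markers to 139 against 86.4 CPM with 1 at 0 with a tumor and 0 without. The clusters named for these cells held Ifitm3 at 1756 and 954 CPM (54 and 13 pericyte-like barcodes) and at 861 and 1462 CPM (28 and 6 fibroblast-like barcodes). Barcodes were not filtered on these 2 lists, and their part in the result was not tested. Red cell markers had the opposite direction in AT2, 52.1 against 235 CPM. The 8 neutrophil markers summed to 31.8 and 1.39 CPM in AT2, with Mmp9 at 0 in the tumor-bearing and S100a8, S100a9 and Il1r2 at 0 in the control library, and to 859 and 3.88 CPM in empty droplets. Per 100 UMIs of the 12 endothelial markers, Ifitm3 had 45.8 UMIs in tumor-bearing and 106 in control AT2, 40.5 and 54.6 in empty droplets, and 19.2 and 16.0 in endothelial-like barcodes. In tumor-bearing AT2 that proportion was close to the one in the library's empty droplets, and the source of the Ifitm3 transcripts was not tested.

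Both genes were therefore read again with that RNA left out or subtracted, choices made after the data were seen. AT2 barcodes with no UMI of the 12 endothelial or 8 neutrophil markers numbered 3612 (53.7%) and 8927 (89.2%), with medians of 8593 and 6907 UMIs. In them Ifitm3 was at 46.4 against 24.1 CPM, a 1.93-fold ratio (1.79 to 2.07), and Ifi27l2a at 29.8 against 10.6 CPM, 2.82-fold (2.55 to 3.11). Both stayed past the rule, where 1.96% of all genes were past it, 0.892% higher. Endothelial-like barcodes held Ifi27l2a at only 7.41 and 0 CPM. The 22 tumor-bearing barcodes of a neutrophil-like cluster held it at 32.2 CPM from 6 UMIs. Leaving out these markers could therefore hardly lower Ifi27l2a, and the source of its transcripts was not tested. In the 4885 and 6588 AT2 barcodes of clusters named AT2-like, where the 12 endothelial markers still summed to 45.1 against 13.7 CPM, Ifitm3 was at 46.0 against 21.7 CPM (2.12-fold, 1.96 to 2.29) and Ifi27l2a at 24.9 against 9.25 CPM (2.69-fold, 2.40 to 3.02), where 2% of all genes were past the rule and 1.05% were higher.

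When the empty droplet profile was scaled to the 12 endothelial markers and subtracted from all AT2, 9.39 CPM of Ifitm3 were left with a tumor and 14.3 CPM without, so the direction turned. With the 10 markers that control AT2 hold at no more than 50% of their empty droplet level, 10.3 and 15.7 CPM were left. Subtraction by all 15 markers, the planned setting, left 0 CPM of Ifitm3 in both libraries, so no ratio could be formed. With 12 markers in AT2-like clusters, 27.7 and 14.2 CPM were left and the tumor-bearing library was again higher. Ifi27l2a, of which the subtraction by 12 markers took only 5.04 and 1.59 CPM in all AT2, kept 23.8 against 8.88 CPM. In AT2-like clusters it kept 23.7 against 8.47 CPM. Relative to the same library's empty droplets, AT2 held Ifi27l2a at 139% with a tumor and 152% without, Ifitm3 at 27.5% and 44.7%, and Ifitm1 at 16.2% and 19.0%. In the control library the Ifi27l2a intervals of AT2 (9.74 to 11.2 CPM) and empty droplets (3.94 to 11.2 CPM, from 16 UMIs) overlapped. The remaining genes lay between Ifi27l2a and Ifitm3: Ifitm2 at 60.5% and 83.7%, Bst2 at 77.7% and 96.0%, Irf1 at 69.7% and 63.8%, and Isg15 at 57.6% and 89.3%. What these percentages reflect was not tested.

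**Figure D4:**
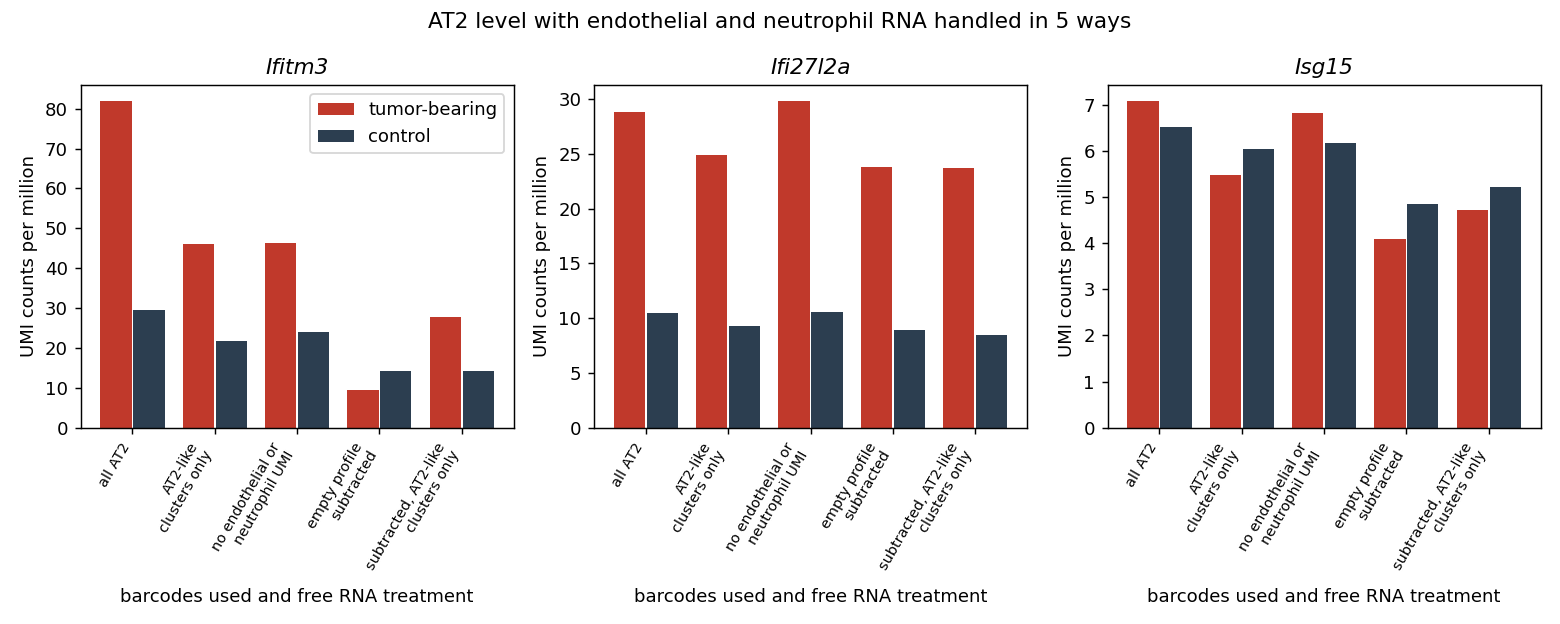
Level in AT2 (CPM) of Ifitm3, Ifi27l2a and Isg15 in the tumor-bearing (red) and control (dark) library over all AT2, AT2-like clusters only, barcodes with no endothelial or neutrophil UMI, and after subtraction of the empty droplet profile in all AT2 or in AT2-like clusters. Ifi27l2a stays between 23.7 and 29.8 CPM against 8.47 to 10.6 CPM, Ifitm3 turns direction in 1 of 5 settings (9.39 against 14.3 CPM), and Isg15 stays between 4.09 and 7.09 CPM.

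In AT1-like barcodes Ifitm3 was at 397 CPM (364 to 433) against 87.3 CPM (75.2 to 101), a 4.55-fold ratio (3.84 to 5.41), and Ifitm2 at 229 against 114 CPM, 2.00-fold (1.69 to 2.38). These 2 of 5 genes of at least 10 CPM were past the rule, where 6.29% of 7933 genes were, 4.94% higher and 1.35% lower. Bst2 was at 117 against 135 CPM and Isg15 at 37.4 against 29.9 CPM, with fold intervals that include 1. The 12 endothelial markers summed to 1414 CPM in the tumor-bearing and 347 CPM in the control AT1-like class. In the 61 and 227 barcodes without such UMIs, Ifitm3 was at 66.5 against 18.1 CPM (3.67-fold, 2.03 to 6.61, from 25 and 26 UMIs) and Ifitm2 at 85.1 against 73.2 CPM (1.16-fold, 0.757 to 1.74), no longer past the rule. Of 29 other interferon-induced genes of at least 10 CPM, 3 were higher past the rule and 0 lower: Usp18, which removes Isg15 from proteins, at 1.65-fold (1.18 to 2.31), Xaf1 at 1.59-fold (1.17 to 2.16) and Ifit1, which encodes an antiviral RNA-binding protein, at 1.51-fold (1.15 to 1.99). The list's median log2 ratio was 0.13 beside -0.022 over all genes. Of 8 receptor chains and kinases 1 was past the rule, the kinase Jak1, at 1.54-fold (1.14 to 2.08), and of 6 interferon regulatory factors and STATs 0 were. The values of Usp18, Xaf1, Ifit1 and Jak1 are those of the whole class. They were not read in barcodes without endothelial or neutrophil UMIs, and the part of endothelial RNA in them was not tested.

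Ciliated-like barcodes differed in Ifitm1 and Irf1. Ifitm1 was at 435 CPM (398 to 475) against 137 CPM (117 to 159), a 3.18-fold ratio (2.67 to 3.80), and Irf1 at 39.9 CPM (29.2 to 53.2) against 113 CPM (95.2 to 133), 0.353 times its control level (0.248 to 0.496). These were the 2 of 5 genes past the rule, where 2.98% of 8600 genes were, 1.49% in each direction. The Ifitm1 counts were concentrated: 11 tumor-bearing barcodes held 76.7% of 502 UMIs and 1 of them held 100, against 41.5% of 176 UMIs in the top 14 control barcodes. After thinning, 19.1% (14.0 to 25.0) of tumor-bearing and 19.9% (15.4 to 25.0) of control barcodes had an Ifitm1 UMI, so the shares overlapped while the summed levels did not. For Irf1 the thinned shares were 6.05% and 10.6%, with overlapping intervals. Ifitm3 was at 639 against 456 CPM, a 1.40-fold ratio (1.26 to 1.56), and Ifitm2 at 287 against 274 CPM. Of 22 other interferon-induced genes of at least 10 CPM 0 were past the rule. In barcodes without endothelial or neutrophil UMIs Ifitm1 was 3.85-fold higher (3.20 to 4.64) and Irf1 at 0.289 times its control level (0.177 to 0.452).

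Club-like barcodes had 1 of 6 genes past the rule, Ifitm1, at 28.3 CPM (24.0 to 33.2) against 68.8 CPM (52.7 to 88.2), 0.412 times its control level (0.305 to 0.562), where 5.48% of 4420 genes were past it, 4.86% lower and 0.611% higher. The club-like class of the control library had 67 barcodes, of which 3 held 59.7% of the 62 Ifitm1 UMIs. Thinned shares were 4.86% and 8.96% and their intervals overlapped. Ifitm3 was at 135 against 141 CPM and Ifitm2 at 140 against 95.4 CPM, a 1.46-fold ratio (1.17 to 1.85). Of 10 other interferon-induced genes of at least 10 CPM 1 was past the rule, Ifi27, higher at 58.1 against 32.2 CPM (1.81-fold, 1.23 to 2.74). Of 3 regulatory factors and STATs 1 was past the rule, Stat3, lower at 30.3 against 49.9 CPM (0.608 times, 0.435 to 0.865).

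Basal-like barcodes had the highest Ifitm1 level of the 6 classes in both libraries, 1409 CPM (1225 to 1614) from 209 UMIs and 1313 CPM (1172 to 1466) from 315 UMIs, and after thinning 85.0% and 85.7% of barcodes had a UMI of it. Ifitm3 was at 1578 against 1163 CPM, a 1.36-fold ratio (1.14 to 1.62). Among the 6 classes Ifi27l2a was also highest here, at 40.5 CPM (14.8 to 88.1) from 6 UMIs and 83.4 CPM (50.9 to 129) from 20 UMIs. In the tumor-bearing library that interval overlapped the one of AT2. A cluster of cycling cells (43 and 22 barcodes) had a median Sftpc share of 19.3%, so most of its barcodes meet the AT2 rule. It held Ifi27l2a at 158 CPM (127 to 194) from 90 UMIs and 101 CPM (65.1 to 148) from 25 UMIs. The fibroblast-like cluster, outside these classes, held it at 104 CPM (61.6 to 164) from 18 UMIs and 112 CPM (23.2 to 329) from 3 UMIs. Of 25 other interferon-induced genes 0 were past the rule. None of the 7 genes was past the rule between libraries, where 1.14% of 8073 genes were (0.657% higher, 0.483% lower), in a class of 20 and 42 barcodes that could show only large differences.

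Endothelial-like barcodes had the highest levels of 5 of the 7 genes among the classes of both libraries. Ifitm3 was at 3703 CPM (3610 to 3798) and 2981 CPM (2713 to 3268), seen in 97.3% and 86.8% of thinned barcodes. Ifitm2 was at 1886 and 1573 CPM, Bst2 at 300 (274 to 328) and 362 CPM (273 to 471), Irf1 at 208 (186 to 231) and 125 CPM (75.3 to 195), and Isg15 at 114 (97.9 to 131) and 132 CPM (80.4 to 203). None was past the rule, where 2.32% of 8579 genes were, 1.15% higher and 1.17% lower. For Irf1 in the control library the interval overlapped that of the ciliated-like class. Ifitm1 had 43 UMIs, 26.6 CPM, in the tumor-bearing class and 0 UMIs in the 53 control barcodes, whose 3-count limit is 19.7 CPM. Of 44 other interferon-induced genes of at least 10 CPM 1 was past the rule, Ifit3, lower at 21 against 65.8 CPM from 34 and 10 UMIs.

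In both libraries the order of classes for Ifitm3 began with endothelial-like, basal-like and ciliated-like barcodes, with separate intervals, and ended with AT2. AT1-like barcodes stood above club-like ones in the tumor-bearing library and below them in the control library. For Bst2 and Isg15 the AT1-like class came next after the endothelial-like class in both libraries, and for Isg15 its interval overlapped that of the basal-like class. AT2, ciliated-like and club-like barcodes had neighbouring Isg15 levels of 3.33 to 7.09 CPM with overlapping intervals. In empty droplets 4 of 7 genes were past the rule, all higher, where 6.62% of 6885 genes were past it, 3.97% higher and 2.66% lower: Ifitm3 at 298 against 65.9 CPM (4.52-fold, 3.83 to 5.37), Ifitm1 at 46.6 against 11.2 CPM (4.16-fold), Ifi27l2a at 20.7 against 6.89 CPM (3.0-fold, 1.77 to 5.44) and Ifitm2 at 289 against 166 CPM (1.74-fold). A cluster of neutrophil-like barcodes (22 with a tumor, 4 without) held 3072 CPM of Ifitm1, 1257 CPM of Ifitm2 and 763 CPM of Ifitm3 among the 22. The 4 control barcodes had 1 Ifitm2 UMI and 0 of the other 2 genes.

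Over 14 profiles, the 6 classes and empty droplets in both libraries, Ifitm2 and Ifitm3 had the most similar pattern of any pair among the 7 (Pearson r of log2 CPM 0.89), and Bst2 and Isg15 the next (0.82), while Ifitm1 and Ifi27l2a had r of -0.64 and -0.58 with Bst2. Among 5521 genes of at least 50 CPM in a profile, those most like Ifitm1 were Sult1d1 (0.95), Cldn8 (0.93) and Ptprz1 (0.92). For Ifitm2 they were Adgrl2, Bcl2 and Notch1 (each 0.97), and for Ifitm3 Plscr4, Rgs12 and Ppt2 (each 0.93). Ifi27l2a was most like Bmp3 (0.90), Cotl1 (0.87) and 1700025G04Rik (0.86). Bst2 was most like Prickle1 (0.97), Slc9a3r2 (0.97) and Gbp2 (0.96), the last an interferon-induced GTPase. For Irf1 they were Cdkn1a (0.95), Midn (0.94) and Serinc3 (0.93), and for Isg15 Vamp3, Crlf2 and Mesdc1 (each 0.97). These values describe profiles that share libraries and free RNA.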

How the data were processed

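Droplet single-cell RNA was measured in 2 libraries. The authors deposited raw UMI counts for all barcodes, made with Cell Ranger 2.1.0 at default settings per the series design. The submitters' processing notes name mm10, R 3.5.3 and Seurat. Of 28692 gene identifiers, 28339 (98.8%) were in GENCODE M21.

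The members and lists were chosen with earlier results of these data known. Barcodes of at least 2000 UMIs, 500 genes and at most 20% mitochondrial UMIs were clustered with scanpy 1.11.5 (2000 variable genes, 30 components, 15 neighbours). Leiden resolution was raised from the planned 0.5 to 1.0 after the clusters were seen, since 0.5 merged basal with club cells, and clusters were named by a rule made with the data in view. Scrublet's automatic threshold marked 0 and 1 barcodes, so the highest scores were removed up to 0.8% per 1000 (649 and 1097). The AT2 rule has no doublet or mitochondrial filter and keeps 564 and 1032 of these. Clusters with mixed markers stayed unnamed.

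Counts were summed per class and library and scaled to CPM. Log2 ratios use a pseudocount of 1 CPM. Folds have conditional binomial, CPM Poisson and shares Clopper-Pearson intervals (scipy 1.17.1). Named by rule were the 7 members, up to 4 genes per list and direction past the size rule in AT2 (there were none outside the members), and the 3 genes most like each member. Other named genes were chosen after their values were seen. The size rule was tested on simulated data. Alternatives varied the AT2 rule, filters, scaling, free RNA, pseudocount, CPM minimum and clustering.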

Additional observations from a re-analysis of the deposited data

Results flagged for a closer look

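Ifitm1 was higher in ciliated-like and lower in club-like barcodes of the tumor-bearing library. The log2 ratios were 1.66 and -1.25, a gap of 2.91, and the difference was not tested, since each group had 1 library. The top 5% of barcodes held 76.7% and 41.5% of its UMIs in the ciliated-like and 62.3% and 59.7% in the club-like class (tumor-bearing and control).

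Barcodes with 101 to 1999 UMIs (15835 with a tumor, 54674 without) entered no comparison. All 7 genes were higher there in the tumor-bearing library, with log2 ratios of 2.83 for Ifitm1, 2.59 for Ifitm3, 1.39 for Ifitm2, 0.98 for Ifi27l2a, 0.89 for Isg15, 0.88 for Bst2 and 0.78 for Irf1. Ifitm3 was at 1030 against 171 CPM in them and Ifitm1 at 129 against 17.4 CPM. The share over all genes is not given for these barcodes, so the count of 7 cannot be read as a result about these genes. Which cells or free RNA these barcodes hold was not tested.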

How the results depend on the processing

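The count of 2 genes past the rule in AT2 stayed at 2 or 3 in all alternatives but 3. It was 4 with free RNA subtracted by 15 endothelial markers, where 93.1% of all genes were past the rule and their median log2 ratio was 1.18. It was 4 with subtraction by red cell markers (7.94% of all genes, median 0.247) and 1 with a minimum of 50 CPM, which Ifi27l2a does not reach and so was not past the rule there. The interferon-induced list's median log2 ratio, -0.00063, was 1.12 and 0.38 under those 2 subtractions and 0.11 with 12 endothelial markers in AT2-like clusters. The log2 ratio of Ifitm3 reversed to -0.55 and -0.56 with subtraction by 12 or 10 endothelial markers over all AT2, where 1 gene was higher and 1 lower. It was past the rule in 21 of 22 alternatives, higher in all 21 but those 2, and Ifi27l2a in 21 of 22, between 0.92 and 1.77. Over the 5 other classes 5 of 35 pairs of gene and class were past the rule. The 35 include pairs under 10 CPM, to which the rule does not apply. Of the 7 genes, 5 reached 10 CPM in AT1-like, 5 in ciliated-like, 6 in club-like, 7 in basal-like and 6 in endothelial-like barcodes. The share over all genes of at least 10 CPM in these classes ran from 1.14% (basal-like) to 6.29% (AT1-like). At resolution 0.5, where no basal-like class was found, 8 pairs were past it. The share over all genes is not given for that setting, so the counts cannot be compared, and the cause of the difference was not tested. No paired analysis was possible because each group has 1 library. Classes of under 100 barcodes could show only large differences, and no value separates mice from treatment.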
